A study of Mus musculus with 5 samples.

Results

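The AP-1 family was followed in mouse colon after activation of the IL-11 receptor, through 10 genes: Fos, Fosb, Fosl1, Fosl2, Jun, Junb, Jund, Batf, Batf3 and Atf3. They were chosen by name, and every probe whose RefSeq accession belonged to one of them was taken, which gave 14 of 56605 probes on the array and, at 1 probe per gene, 10 of 32917 features tested. RNA of whole colon was hybridised to 5 single-colour Agilent arrays. The 2 Control arrays held untreated wild-type C57BL/B6 mice. The 3 NT-3N arrays held wild-type C57BL/B6 mice that received NT-3N, an IL-11 receptor agonist made from modified human IL-11, by vein, and the colon was taken 3 h later. The injected mice were 8 weeks old, and the dose is 10 μg in the methods of the study where the design text has 10 mg. No vehicle injection is given for the controls, so the agonist and the injection cannot be told apart, and in whole colon fewer cells of a type cannot be told apart from less RNA per cell. Nothing states whether the mice were housed or killed together, and the p-values measure the spread between these 5 arrays only.

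AP-1 is a transcription factor built from pairs of basic leucine zipper (bZIP) proteins. Fos proteins pair with Jun proteins, while Jun proteins can also pair with each other, and the pair binds short DNA sites near genes of growth, matrix turnover and inflammation. Batf proteins lack the long activation domains of Fos and pair with Jun proteins at the same sites, often next to interferon regulatory factors. Atf3 is a stress-induced member that pairs with Jun proteins or with itself. IL-11 acts through its receptor chain and gp130, which switch on the factor STAT3 and the ERK kinase pathway, and several AP-1 genes are classical early targets of both. In the gut, AP-1 is known from wound repair, colitis and tumour growth.

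None of the 10 genes passed limma's Benjamini-Hochberg adjusted p of 0.05, a threshold passed by 0.143% of all features, 0.125% of them higher and 0.0182% lower in NT-3N. At an unadjusted p under 0.05, 4 were higher in NT-3N (Batf3, Junb, Batf and Fosl2) and 1 was lower (Jund), where 4.95% of all features were higher and 4.67% lower. For the same 5 genes every NT-3N array lay on one side of both controls, which held for 28.4% of all features. The largest difference was that of Batf3, with a level 1.99-fold that of Control. In all, 7 members had a log2 fold change above 0 and 3 below, against 46.4% of all features above 0, and the median log2 fold change was 0.21 for the members and -0.019 for all features. The 3 include Jun, at 0.998-fold, and the count above 0 ran from 6 to 8 over other processing settings. All 10 genes were well above background on all 5 arrays. An exact two-sided permutation test of 1 gene cannot go below p = 0.1 with 2 and 3 arrays, and it gave 0.1 for Jund, Batf and Batf3, 0.2 for Fosl2 and Junb, and at least 0.6 for the others.

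**Figure D1:**
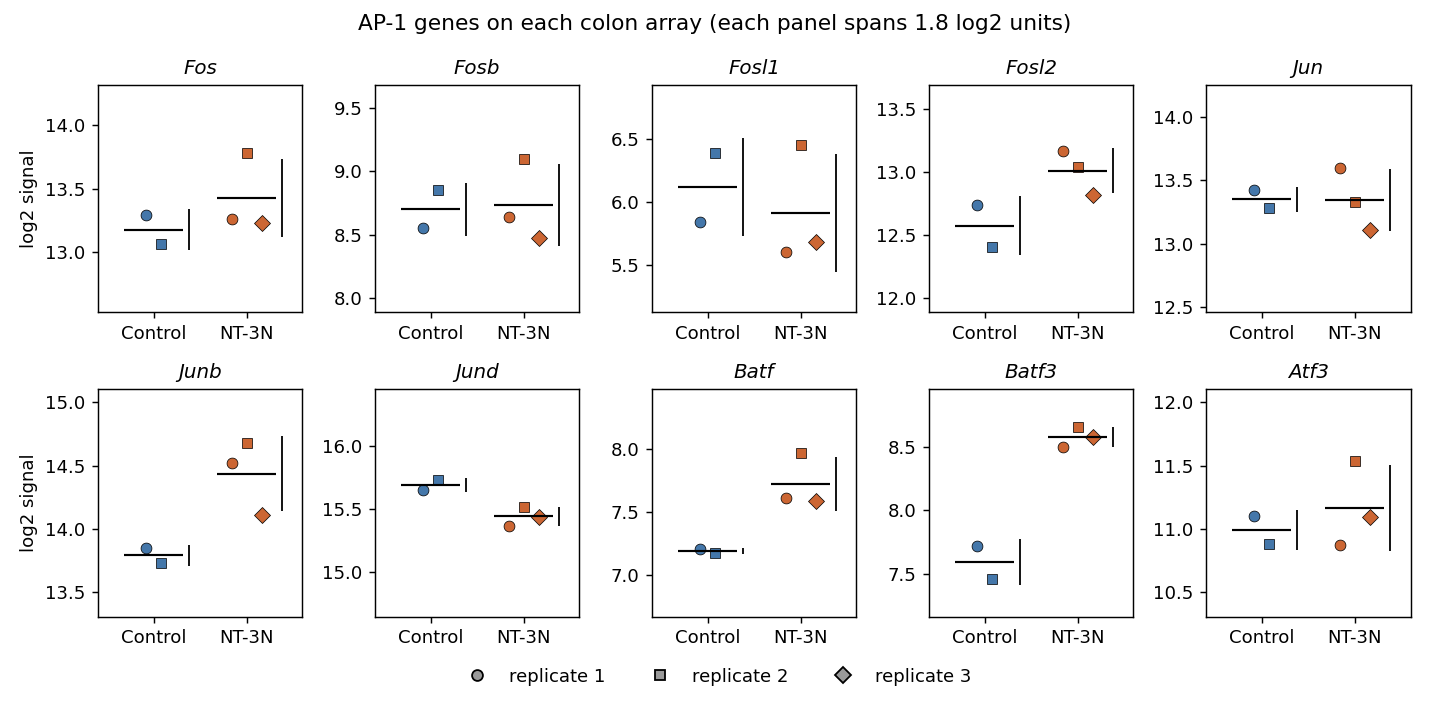
The log2 signal of each AP-1 gene (y axis, quantile-normalized) on the 2 Control and 3 NT-3N arrays, with the symbol giving the replicate number, a horizontal line for the mean and a vertical bar for 1 SD to each side. The groups lie apart for Fosl2, Junb, Jund, Batf and Batf3, and NT-3N replicate 2 is the highest of the 5 arrays for 7 of the 10 genes.

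The stretches of 250 bases before the start of Batf3 and Junb, the genes with the largest differences, and of Fos, the family's founding member, are shown as the windows in which signal-dependent factors could be looked for. They are reference sequence of RefSeq on GRCm38.p6, which listed a promoter for 9 of the 10 genes, and run 5′ to 3′ along the gene's own strand. Capitals mark every match to TTCNNNGAA, the pattern bound by STAT factors, and to TGACG, which is the left part of the CRE motif TGACGTCA.

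Batf3, chr1:191098164-191098413, plus strand: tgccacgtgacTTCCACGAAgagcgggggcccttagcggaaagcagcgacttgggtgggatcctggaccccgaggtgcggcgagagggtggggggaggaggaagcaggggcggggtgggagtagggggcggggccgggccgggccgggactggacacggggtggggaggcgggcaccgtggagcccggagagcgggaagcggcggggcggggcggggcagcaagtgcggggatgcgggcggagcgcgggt

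Junb, chr8:84978749-84978998, minus strand: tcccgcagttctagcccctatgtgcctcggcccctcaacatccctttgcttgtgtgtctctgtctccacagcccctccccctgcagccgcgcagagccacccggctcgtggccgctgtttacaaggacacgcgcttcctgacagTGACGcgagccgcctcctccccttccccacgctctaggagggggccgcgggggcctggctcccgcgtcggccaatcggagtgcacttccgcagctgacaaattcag

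Fos, chr12:85473640-85473889, plus strand: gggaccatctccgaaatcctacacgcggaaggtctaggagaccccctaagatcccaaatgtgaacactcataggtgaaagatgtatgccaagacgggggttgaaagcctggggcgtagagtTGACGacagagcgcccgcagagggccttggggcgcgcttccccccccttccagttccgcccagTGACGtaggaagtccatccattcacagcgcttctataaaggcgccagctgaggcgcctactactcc

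The window searched ran from 250 bases before to 50 after the start, on both strands. The STAT pattern TTCNNNGAA was found in 1 of the 9 members, Batf3, as TTCCACGAA from -239 to -231 relative to the start, and in 8.3% of all 32851 promoters. The AP-1 site TGANTCA, the CRE TGACGTCA and the CArG box of serum response factor were in 0 of the 9, against 7.81%, 1.79% and 1.63% of all promoters. The part site TGACG, added after these results, was in 5 of the 9 (Fos, Fosb, Junb, Batf and Atf3) and in 20.8% of all promoters. In Fos it lay at -129 to -125 and -66 to -62, and in Junb at -106 to -102. These matches are letters in a window and not measured binding. Sites further upstream, and sites that differ from a pattern by a letter, were not searched, so a count of 0 does not mean that a gene lacks such a site.

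Among the Fos proteins, Fos and Fosb are the immediate early members, made within minutes of a signal, and Fosl1 and Fosl2 (Fra-1 and Fra-2) follow later and last longer. The log2 signal of Fos was 13.29 and 13.06 in Control and 13.26, 13.78 and 13.23 in NT-3N. Only NT-3N replicate 2 stood above both controls, and the log2 fold change was 0.25 with a 95% interval from -0.19 to 0.68 (limma, adjusted p = 0.71). Without that array it was 0.07. Fosb had the same array on top, with 8.55 and 8.85 in Control and 8.64, 9.10 and 8.47 in NT-3N, a log2 fold change of 0.04 and an interval from -0.47 to 0.55. A further Fosb probe was not well above background on any array and was not tested. Fosl1, the Fra-1 gene, gave 5.84 and 6.39 in Control and 5.60, 6.45 and 5.68 in NT-3N. These groups overlapped widely, and the interval around the log2 fold change of -0.21 ran from -0.98 to 0.57, which leaves room for a difference in either direction.

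Fosl2 was the only Fos gene whose groups lay apart. Its log2 signal was 12.74 and 12.41 in Control and 13.17, 13.04 and 12.82 in NT-3N, and the lowest NT-3N array exceeded the highest control by 0.08. The means were 12.58 ± 0.24 (SD, n = 2) and 13.01 ± 0.18 (SD, n = 3), a log2 fold change of 0.43 (SE 0.14) with an interval from 0.09 to 0.78 (limma, unadjusted p = 0.022, adjusted p = 0.43). The difference leaned on Control replicate 2, without which it was 0.27 (unadjusted p = 0.16), and the unadjusted p was 0.055 without NT-3N replicate 2. A further Fosl2 probe had a difference of 0.27, and its groups overlapped.

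The Jun proteins are the obligate partners of Fos, and the members differed from each other. Jun, the strongest activator among them, had a log2 signal of 13.42 and 13.28 in Control and 13.60, 13.33 and 13.11 in NT-3N. Both means were 13.35, and the interval of the difference ran from -0.36 to 0.35. Junb, which pairs with the same partners but activates fewer genes, gave 13.85 and 13.73 in Control and 14.52, 14.68 and 14.11 in NT-3N. All 3 NT-3N arrays lay at least 0.26 above the higher control. From 13.79 ± 0.087 (SD, n = 2) to 14.44 ± 0.29 (SD, n = 3), the difference in Junb was 0.65 on the log2 scale (SE 0.17) and its interval ran from 0.25 to 1.05 (limma, unadjusted p = 0.0072, adjusted p = 0.32). The further Junb probe showed the same lack of overlap, with 7.91 and 7.74 in Control and 8.24, 8.62 and 8.03 in NT-3N and a difference of 0.47. Junb passed adjustment in the local-pooled-error test, the test that the methods of the study name, with an adjusted p of 0.012 and a difference of medians of 0.73. That test, in a version written here, called 348 of 32917 features, where limma called 47, and no other member passed it.

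Jund, which is made in most resting cells, was the only member with a lower level and no overlap. Its log2 signal was 15.65 and 15.73 in Control and 15.37, 15.52 and 15.44 in NT-3N, which is 15.69 ± 0.053 (SD, n = 2) against 15.44 ± 0.077 (SD, n = 3). The log2 fold change was -0.25 with an interval from -0.42 to -0.07 (limma, unadjusted p = 0.014, adjusted p = 0.38). The further probe, which carries another Jund accession, also lay lower in all NT-3N arrays, with a smaller difference of -0.14. The unadjusted p was 0.099 without Control replicate 2 and 0.16 in the local-pooled-error test.

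The ratio of 2 genes on 1 array does not depend on a constant scale factor between arrays. Array effects that vary with intensity can remain in it. Some ratios of unscaled signal were set against the Control mean, for pairs chosen after their values were seen and so without a test. The ratio of Junb to Jund was higher by 1.05, 1.08 and 0.59 on the log2 scale in the NT-3N arrays, while the controls lay at 0.08 and -0.08. That of Junb to Jun was higher by 0.49, 0.88 and 0.54, with the controls within 0.01 of their mean. The ratio of Fosl2 to Fos showed no such separation, with 0.50, -0.12 and 0.18 in NT-3N.

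Batf and Batf3 are best known from immune cells, Batf from T and B lymphocytes and Batf3 from the conventional dendritic cells that present antigen to CD8+ T cells. The log2 signal of Batf was 7.21 and 7.18 in Control and 7.61, 7.97 and 7.59 in NT-3N. Every NT-3N array exceeded the controls by at least 0.39. The difference in Batf was 0.53 on the log2 scale (SE 0.16) and its interval ran from 0.14 to 0.92 (limma, unadjusted p = 0.015, adjusted p = 0.39). The unadjusted p was 0.054 without Control replicate 1, 0.063 without Control replicate 2 and 0.39 in the local-pooled-error test.

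Batf3 showed the largest difference of the family. It went from 7.72 and 7.46 in Control to 8.50, 8.66 and 8.58 in NT-3N, so that the lowest NT-3N array lay 0.79 above the higher control. The means were 7.59 ± 0.18 (SD, n = 2) and 8.58 ± 0.077 (SD, n = 3). The log2 fold change of 0.99 had a standard error of 0.13 and an interval from 0.67 to 1.31, that is from 1.59-fold to 2.48-fold (limma, unadjusted p = 0.00022, adjusted p = 0.078). By p it ranked 92 of 32917 features. With each array left out in turn the log2 fold change ran from 0.86 to 1.11, and over the 19 alternatives the adjusted p ran from 0.031, with array quality weights, to 0.98, in the local-pooled-error test, where the unadjusted p was 0.031. The ratio of Batf3 to Batf within arrays was higher by 0.49, 0.31 and 0.60 in NT-3N, with controls at 0.12 and -0.12.

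Immune cell markers were read beside the Batf genes, as the mean log2 signal of each list. The 6 dendritic cell markers tested lay at 6.61 and 6.80 in Control and 6.82 to 6.87 in NT-3N, with a median log2 fold change of 0.12. Among them Clec9a, a marker of the dendritic cells that need Batf3, had a log2 fold change of 0.06, and Xcr1, another such marker, did not pass the filter on dim probes. The 8 T cell markers ranged from 8.25 to 8.47 in Control and 8.32 to 8.71 in NT-3N. The 10 B cell markers gave 7.94 and 6.29 in Control and 7.93 to 8.30 in NT-3N, with Control replicate 2 below the other arrays. Of the 10, Ms4a1 (CD20) differed most, with 4.95 and 6.53 in Control and 9.13 to 9.54 in NT-3N, a log2 fold change of 3.65 (limma, adjusted p = 0.059). Of the 6 neutrophil markers, Cxcr2 and Retnlg did not pass the filter on dim probes. Csf3r, the one well above background on all 5 arrays, gave 16.25 and 16.23 in Control and 16.23, 15.96 and 16.04 in NT-3N, and its groups overlapped. That level is close to those of the smooth muscle genes Acta2 and Cnn1, and whether this probe reads neutrophil RNA was not tested. The groups of Mmp8 also overlapped, with a log2 fold change of 0.50. S100a8 and S100a9 were well above background on all 3 NT-3N arrays and on neither Control array, so that they passed the filter only through NT-3N, and their p is not given. With each Control array set at its dimmest signal well above background, S100a9 was 13.9-fold and S100a8 3.61-fold higher in NT-3N. Signals not well above background can exceed that level, so these folds are not strict lower bounds. Batf was 7.18 on Control replicate 2 and 7.21 on Control replicate 1, and without Control replicate 2 the log2 fold change was 0.52 for Batf and 0.86 for Batf3. The part of these cells in the Batf values was not tested.

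Atf3 is induced by many kinds of cell stress. Its log2 signal was 11.10 and 10.88 in Control and 10.87, 11.54 and 11.09 in NT-3N. As with Fos and Fosb, NT-3N replicate 2 stood alone above the controls, and the log2 fold change was 0.18 with an interval from -0.31 to 0.67 (limma, adjusted p = 0.80). Without NT-3N replicate 2 it was -0.01. On the RefSeq map of GRCm38.p6, Batf3 and Atf3 lie close together on chromosome 1, with 1 gene with a curated mRNA, Fam71a, between them. The ratio of Batf3 to Atf3 was higher by 1.02, 0.47 and 0.83 in the NT-3N arrays. Fos and Batf are neighbours of the same kind on chromosome 12, with 1 such gene between them, which is Jdp2, a bZIP repressor of AP-1 sites. Jdp2 had a log2 fold change of -0.36 with an interval from -0.75 to 0.02 (limma, adjusted p = 0.54), opposite in sign to Batf.

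**Figure D2:**
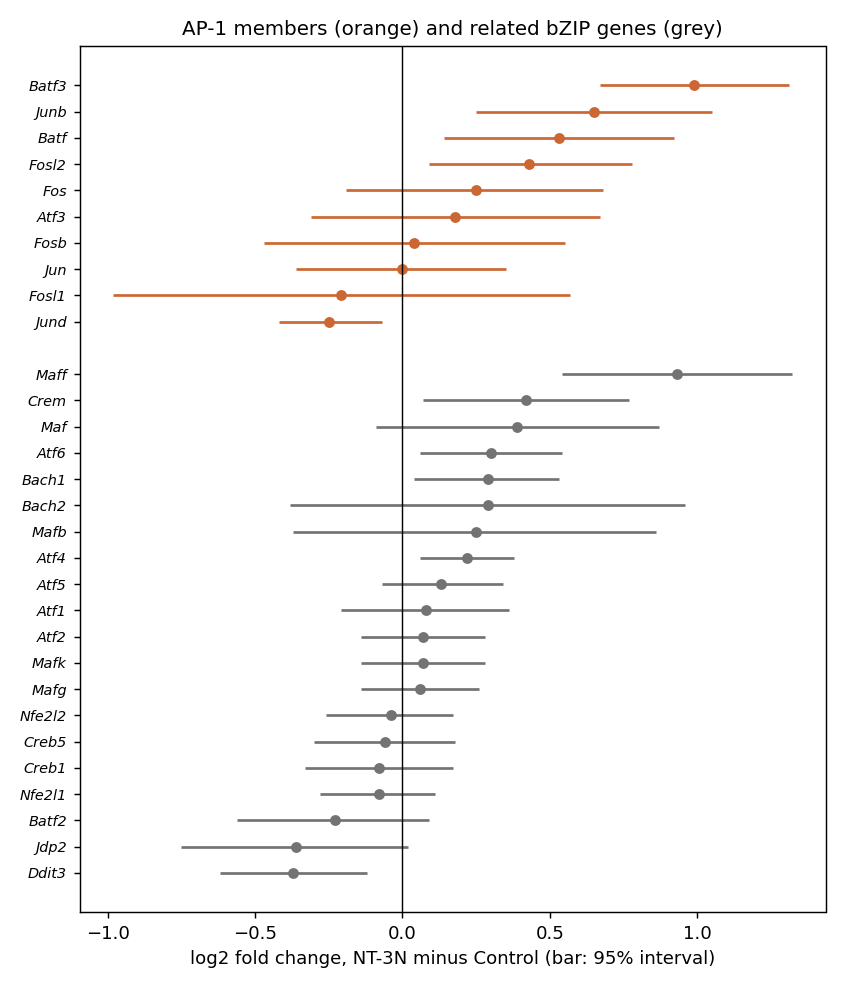
Log2 fold change of NT-3N against Control (x axis) for the 10 AP-1 members in orange and 20 related bZIP genes in grey, with bars for the limma 95% interval. The intervals of Batf3, Junb, Batf and Fosl2 lie above 0 and that of Jund below, and Maff stands next to Batf3 in size.

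The arrays did not weigh equally. NT-3N replicate 2 was the highest of the 5 arrays for 7 of the 10 members but for 15.7% of all features, and Control replicate 2 was the lowest for 5 members and for 19.2% of all features. Relative to the Control mean, the median over the members was 0.51 on NT-3N replicate 2, 0.17 on replicate 1 and 0.08 on replicate 3. Genes of tissue handling and heat shock were read in the same way, since Fos, Jun and Atf3 also respond to excision and delay. The 14 genes had a mean log2 signal of 11.73 and 11.72 in Control and of 11.58, 11.99 and 11.87 in NT-3N, and the highest value fell on the same array. Their median log2 fold change was 0.07, with 2 higher (Egr1 and Dusp1) and 2 lower (Hsph1 and Hsp90aa1) at an unadjusted p under 0.05, which is 28.6% of the list beside 9.62% of all features. Egr1, an early gene of ERK and serum response factor, stood at 8.66 and 9.32 in Control and at 10.49, 11.50 and 10.59 in NT-3N, a log2 fold change of 1.87 (limma, adjusted p = 0.17). Dusp1, an early phosphatase of MAP kinases, had a log2 fold change of 0.55 and the chaperone Hsph1 one of -0.98. The part of handling in the AP-1 values was not tested. Without NT-3N replicate 2 the log2 fold change was 0.95 for Batf3, 0.53 for Junb, 0.42 for Fosl2 and 0.41 for Batf.

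Of 20 related bZIP genes tested, 13 were higher and 7 lower, with a median log2 fold change of 0.07, and 0 passed adjustment. At an unadjusted p under 0.05, 5 were higher (Maff, Crem, Atf6, Bach1 and Atf4) and 1 was lower (Ddit3), beside 4.95% and 4.67% of all features. Maff, a small Maf protein that has no activation domain of its own, had the largest difference, from 9.22 and 9.06 in Control to 10.05, 10.32 and 9.83 in NT-3N. The Maff difference of 0.93 on the log2 scale had an interval from 0.54 to 1.32 (limma, adjusted p = 0.15). Its relatives Mafg and Mafk stood at 0.06 and 0.07. Crem, a factor of cyclic AMP response, had a log2 fold change of 0.42, and Ddit3 (CHOP), a factor of the unfolded protein response, one of -0.37 with all NT-3N arrays below both controls. Batf2, the third Batf gene, gave -0.23 with overlapping groups.

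The kinases and regulators that act on AP-1 gave a narrow picture. Of 33 genes tested, 18 were higher and 15 lower, the median log2 fold change was 0.01, and 2 were higher and 1 lower at an unadjusted p under 0.05. This share of 9.09% was close to the 9.62% of all features. Map3k8 (Tpl2), a kinase upstream of ERK, stood out with 5.60 and 5.49 in Control and 6.88, 6.81 and 6.72 in NT-3N, a log2 fold change of 1.26 with an interval from 0.88 to 1.63 (limma, adjusted p = 0.069). Rps6ka3, a kinase downstream of ERK, had 0.21, and Mapk7 (ERK5) -0.25. Irf4 and Irf8, which bind DNA together with Batf proteins, had log2 fold changes of 0.19 and 0.08.

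Genes known as AP-1 targets were next, in a list written with earlier results of these data known. Of 20 tested, 15 were higher and 5 lower, with a median log2 fold change of 0.55, and 9 were higher and 2 lower at an unadjusted p under 0.05, beside 4.95% and 4.67% of all features. The 9 and the median include Il6 and Mmp9, which were not well above background on either Control array. These 2 genes passed the filter on dim probes only through NT-3N. Only Timp1, an inhibitor of matrix metalloproteinases, passed adjustment and rose, from 8.76 and 8.75 in Control to 10.40, 10.56 and 10.28 in NT-3N, a log2 fold change of 1.66 with a standard error of 0.12 (limma, adjusted p = 0.012). The matrix metalloproteinases Mmp3 and Mmp10 had log2 fold changes of 1.69 and 1.31 with adjusted p of 0.099 and 0.37. The values of Il11, a target of Fra-1, overlapped between the groups, with a log2 fold change of 0.14. Il6 was not well above background in Control and was so on 2 of the 3 NT-3N arrays. With Control set as for S100a8 and S100a9, its difference was 2.72-fold, again not a strict lower bound. The collagenase Mmp13 had a log2 fold change of 0.83. The 2 lower genes were the growth factors Fgf7, at -0.69, and Vegfa, at -0.24. The target genes took their highest mean level, 8.40, on NT-3N replicate 2, against 8.05 and 8.10 on the other NT-3N arrays and 7.55 and 7.49 in Control. These means include Il6 and Mmp9, whose Control values were not well above background, so the gap between the groups depends in part on those 2 genes. The part of AP-1 in the values of the target list was not tested.

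**Figure D3:**
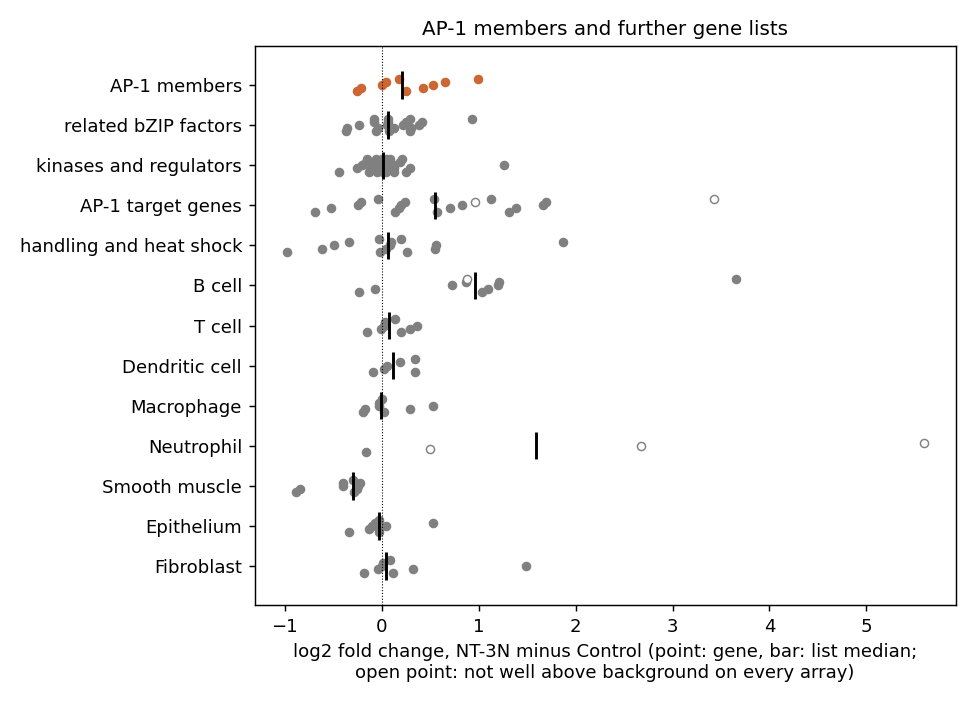
Log2 fold change of NT-3N against Control (x axis) for each gene of the AP-1 family in orange and of 12 further lists in grey, with a black bar at the median of the list and open points for genes not well above background on every array. The members spread from -0.25 to 0.99 around a median of 0.21, the target genes have a median of 0.55 and the kinases and regulators have a median of 0.01.

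The other tissue markers were read for the colon as a whole. Epithelial markers lay between 15.82 and 15.97 on all arrays. Fibroblast markers had a mean log2 signal of 12.39 and 12.32 in Control and 12.26, 12.85 and 12.63 in NT-3N. All 9 smooth muscle markers were lower in NT-3N, with a mean log2 signal of 14.32 and 14.36 in Control and 13.76 to 14.02 in NT-3N and a median log2 fold change of -0.30. Of these, 4 had an unadjusted p under 0.05 (4.67% of all features were lower at that p), namely Smtn at -0.88 (limma, adjusted p = 0.062), Lmod1 at -0.84, Tagln at -0.25 and Myh11 at -0.22. The 8 macrophage markers had a median log2 fold change of -0.01, and all overlapped between the groups except Mrc1, which was higher on every NT-3N array with a log2 fold change of 0.53. Among fibroblast markers Pdpn, which encodes podoplanin, had a log2 fold change of 1.49 (limma, adjusted p = 0.067) and Dcn one of 0.32, beside a list median of 0.05. NT-3N replicate 2 was the highest of the 5 arrays for 5 of 8 fibroblast and 6 of 8 macrophage markers. It was so for 4 of 9 epithelial and 0 of 9 smooth muscle markers. The part of these cells in the AP-1 values of that array was not tested.

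**Figure D4:**
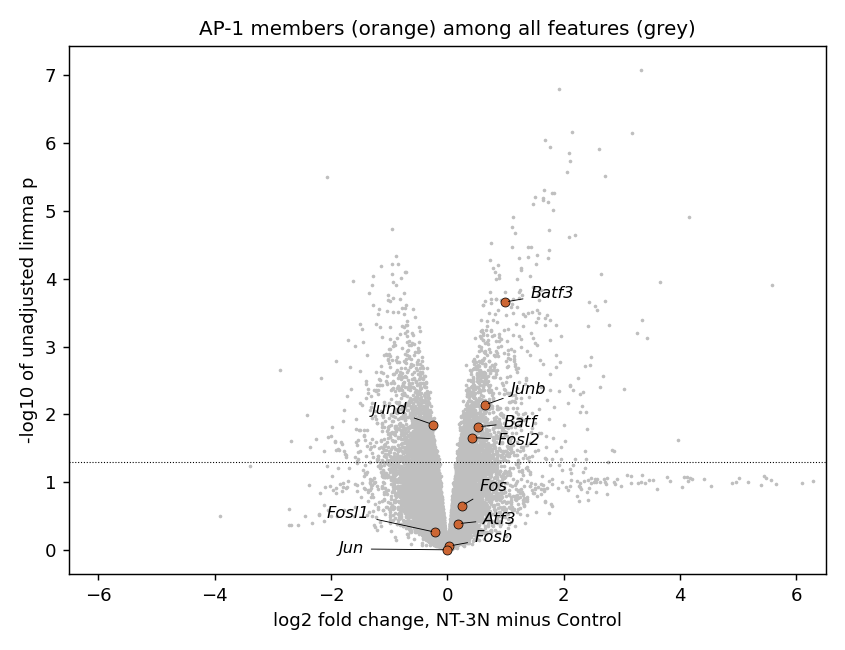
Log2 fold change (x axis) against -log10 of the unadjusted limma p (y axis) for all 32917 features in grey and the 10 AP-1 members in orange, with a dotted line at the 0.05 threshold. Batf3, Junb, Jund, Batf and Fosl2 lie above the line and the other 5 members below it, and Batf3 ranks 92 of all features by p.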

How the data were processed

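Whole-colon RNA of 5 mice was labelled with Cy3 and hybridised to Agilent SurePrint G3 mouse arrays on 1 slide with 1 scan time. The authors extracted spots with Agilent Feature Extraction 11.0.1.1. Each array's file, as deposited, holds the processed signal, an intensity that is background-subtracted and detrended but not scaled between arrays. A value table deposited by the authors is on a log2 scale and matched quantile-normalized processed signal here (correlation of at least 0.99998 on each array, column median 8.473).

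Control and outlier spots (69 to 184 per array) were left out, log2 signals averaged per probe and arrays quantile-normalized. Accessions named 32994 of 56605 probes through RefSeq (GRCm38.p6; the array design names another build). Probes well above background on at least 2 arrays were kept, with the brightest probe per gene. The share of probes well above background ran from 70.58% to 72.9%, and 0 spots were saturated. Groups were compared with limma 3.58.1 (R 4.3.3, lmFit, eBayes with trend), Benjamini-Hochberg adjusted over 32917 features. A check on simulated data drew its errors from limma's own variance model, so it could not test whether that model holds for these arrays. Alternatives covered scaling, background, filter, variance model, weights, replicate block, left-out arrays, probe choice and the local-pooled-error test named in the methods of the study. All members are described; from each further list, genes with adjusted p under 0.05 and the 3 largest differences among those with unadjusted p under 0.05 are named, as are some others chosen after their values were seen. Members and lists were chosen with earlier results of these data known. The number of arrays limits the precision.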

Additional observations from a re-analysis of the deposited data

How the results depend on the processing

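No member passed an adjusted p of 0.05 in the reported fit, and of 190 combinations of a member with an alternative 176 kept direction and call, 2 gained a call and 12 turned direction. Batf3 gained a call with array quality weights (log2 fold change 1.02) and Junb in the local-pooled-error test (0.73). Turned values were all of members with overlapping groups. For Jun they were 0.02 with 75th percentile scaling, 0.04 with median scaling, 0.03 with normexp and 0.11 with the replicate block. Jun also turned without Control replicate 1 (0.07), NT-3N replicate 2 (0.01) and NT-3N replicate 3 (0.11). All its values with arrays left out ran from -0.13 to 0.11. Fosb was -0.06 in the local-pooled-error test and from -0.15 to 0.19 with arrays left out, Fosl1 from -0.48 to 0.07 and Atf3 from -0.01 to 0.33. Members called numbered 1 higher with array weights and 1 higher in the local-pooled-error test. At an unadjusted p under 0.05 the lower count was 0 without the trend and 0 in the local-pooled-error test. With arrays left out the higher count ran from 2 (Junb and Batf3, without Control replicate 2) to 4. The lower count ran from 0 to 1.

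Replicate numbers were not taken as pairs. Deviations of equal numbers correlated at 0.13 and 0.036 over 2 pairs. The 2 Control arrays deviate from their mean by equal and opposite amounts, so these 2 values are not independent and cannot decide whether a pairing exists. With the replicate block 0 features were called higher and 0 lower, with 2488 at an unadjusted p under 0.05, and 0 genes of the 4 further lists; no member changed its call.

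Of all features, 41 were called higher and 6 lower. These became 2 and 0 without a filter and 2 and 0 without the trend, 128 and 48 with weights, and 192 and 156 in the local-pooled-error test. The lower calls were 15 with robust variance, 13 where all 5 arrays had to be above background, 12 with every probe tested, 11 with named genes alone and 11 with the deposited values. With arrays left out the higher ran from 0, without NT-3N replicate 3, to 114, without Control replicate 2 (9 without NT-3N replicate 2 and 71 without NT-3N replicate 1). The lower counts ran from 0 to 16. Of the 4 further lists (related bZIP, kinases, targets and handling) 1 gene was called higher, Timp1, and 0 lower. The higher count was 0 without a filter or the trend, 4 with weights and 4 in the local-pooled-error test, each with 1 lower, and from 0 to 2 with arrays left out. For all of these the cause was not tested. A left-out Control leaves 1 Control array, which is taken to vary like the NT-3N arrays. A block of slide or scan was not run, since there was 1 of each.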
